A study of Homo sapiens with 6 samples.

Results

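Toll-like receptors of monocytic cells, with their co-receptors and adaptors, were examined as a set of 10 genes, TLR1, TLR2, TLR4, TLR5, TLR6, TLR8, CD14, LY96, MYD88 and TIRAP. They were chosen by symbol, and all 10 are among the 18806 gene symbols of the deposited table. Levels are TPM, which divide reads by transcript length and scale each library to 1000000 transcripts, so levels of different genes can be compared and read depth is unknown. The 6 poly(A)+ RNA libraries came from the human cell line Mono-mac-6, derived from a monocytic acute myeloid leukemia and bearing an MLL-AF9 fusion. Cells of every group derived from 1 Cas9 clone and had received a lentiviral guide, with selection in blasticidin at 10 µg/ml and hygromycin B at 200 µg/ml. The groups were sgDDX6.1 and sgDDX6.2, guides against DDX6, an RNA helicase of mRNA decay and translational repression, and sgNS, the control guide, with 2 libraries each. Harvest was at 8 days after infection per the labels, while the design text gives 1 to 2 weeks of selection, so the day is uncertain, and no label names a receptor ligand. Whether a group's 2 libraries are separate cultures is not labelled, so the p-values rest on a spread between libraries that may be technical.

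Toll-like receptors recognise microbial molecules and are central to how monocytes sense bacteria. At the cell surface TLR2 pairs with TLR1 or TLR6 to bind lipopeptides, TLR5 binds flagellin, and TLR4 binds lipopolysaccharide through its partner LY96 (also called MD-2), to which CD14 hands the ligand. TLR8 senses RNA in endosomes. On binding, the adaptor MYD88 is recruited, with TIRAP as a bridge for TLR2 and TLR4, and relays the signal through IRAK kinases to NF-kB.

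DDX6 itself had 54.4 and 52.0 TPM in the sgDDX6.1 libraries, 52.3 and 53.5 TPM in the sgDDX6.2 libraries, and 102 and 99.5 TPM in the sgNS libraries, so its level matched the labels. Of 12 monocyte and macrophage markers outside the set, 11 passed the filter on low values, and their summed level was 26000 to 26030 TPM in sgDDX6.1, 24899 to 25593 TPM in sgDDX6.2 and 13637 to 14160 TPM in sgNS. Lysozyme (LYZ), at 9531 to 14945 TPM, led that sum, with S100A9 at 2481 to 7605, CD68 at 222 to 412 and CD33 at 47.8 to 62.0 TPM, while FCN1, a ficolin of blood monocytes, stayed at or below 0.16 TPM. Of the 11, 8 rose and 3 fell over both guides, where 33.8% of all genes tested rose and 32.9% fell. Nothing particular to the list is read from these counts. Those that fell were FCGR1A (-0.59 on the log2 scale), ITGAM (-0.34) and ITGAX (-0.33). CSF1R and CD4, both among those that rose, entered the test only through sgDDX6 libraries and so had to differ. The granulocyte and precursor list summed to 10914 to 11591 TPM in sgDDX6.1, 13106 to 13393 TPM in sgDDX6.2 and 8435 to 9015 TPM in sgNS. In it CTSG, ELANE and PRTN3 rose by 0.53, 0.42 and 1.49 on the log2 scale, MPO fell by 1.23, AZU1 had -0.18 with sgDDX6.1 and 0.23 with sgDDX6.2, and CEACAM8 was at 0. The T and NK cell list summed to 130 to 137 TPM in sgDDX6.1, 187 to 191 TPM in sgDDX6.2 and 106 to 114 TPM in sgNS, nearly all from NKG7, a cytotoxic granule gene; CD8A was at 0.92 to 3.54 TPM and fell by 0.64, and CD3D, CD3E, CD3G, CD2 and KLRD1 were at 0 throughout. The B cell list summed to 1.89 to 1.99 TPM in sgDDX6.1, 4.52 to 5.23 TPM in sgDDX6.2 and 2.37 to 2.98 TPM in sgNS; CD79B rose by 0.63, CD79A fell by 0.47 and MS4A1 was at 0. The erythroid and platelet list summed to 1.49 to 1.91 TPM in sgDDX6.1, 1.04 to 1.83 TPM in sgDDX6.2 and 0.46 to 1.06 TPM in sgNS; HBA1 rose by 0.80, having entered the test only through sgDDX6 libraries, and HBB and PF4 were at 0. PECAM1, which monocytes also express, led the epithelial and stromal list. That list summed to 147 to 150.2 TPM in sgDDX6.1, 209 to 220.0 TPM in sgDDX6.2 and 85.9 to 87.8 TPM in sgNS. PECAM1 rose by 1.31, KRT18, at 10.75 to 19.82 TPM, fell (-0.47), and CDH1 was at 0. KRT8 fell (-0.38), having entered the test only through sgNS libraries. These changes passed in limma over both guides, except those of AZU1, which passed with each guide. Some passed with a single guide only. CD8A (-1.19 with sgDDX6.1, -0.08 with sgDDX6.2), CD79A (-0.74, -0.20) and KRT18 (-0.78, -0.16) passed with sgDDX6.1 only. So did ITGAM (-0.45, -0.22) and ITGAX (-0.80, 0.14). CD79B (0.09, 1.16) and CD33 (0.05, 0.30) passed with sgDDX6.2 only. The part that these markers have in the values below was not tested, and in bulk RNA fewer expressing cells and less RNA per cell cannot be told apart.

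With DDX6 targeted, LY96, TLR6 and TLR4 fell and MYD88 rose, whereas TLR2, the most abundant of the 10, did not pass the test. A gene entered the test with at least 1 TPM in 2 or more libraries, which 8 of the 10 genes did; TLR5 and TLR8 did not, and CD14 did so only through the sgNS libraries, so that it had to differ if it was tested at all. Over both guides 3 of the others fell, 1 rose and 3, TLR1, TLR2 and TIRAP, did not pass an adjusted p of 0.05 (limma with Benjamini-Hochberg adjustment over 11151 genes); with CD14 the number lower is 4 of 8. Over all 11151 genes 66.7% passed, 33.8% higher and 32.9% lower, so the 62.5% of the tested receptor and adaptor genes is near that background and is no result about the set. With each guide alone the same genes passed in the same direction, 1 higher and, CD14 included, 4 lower. The background there was 61.6% with sgDDX6.1 (31.8% higher, 29.7% lower) and 64.2% with sgDDX6.2 (31.5% higher, 32.7% lower). Those comparisons share the sgNS libraries. Over both guides TIRAP passed under quantile normalization (adjusted p = 0.0107), under median centring, without a variance trend and without sgDDX6.1 replicate 2, and TLR5 passed without the filter, where 47.3% of genes did; each takes the number that rose to 2.

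**Figure D1:**
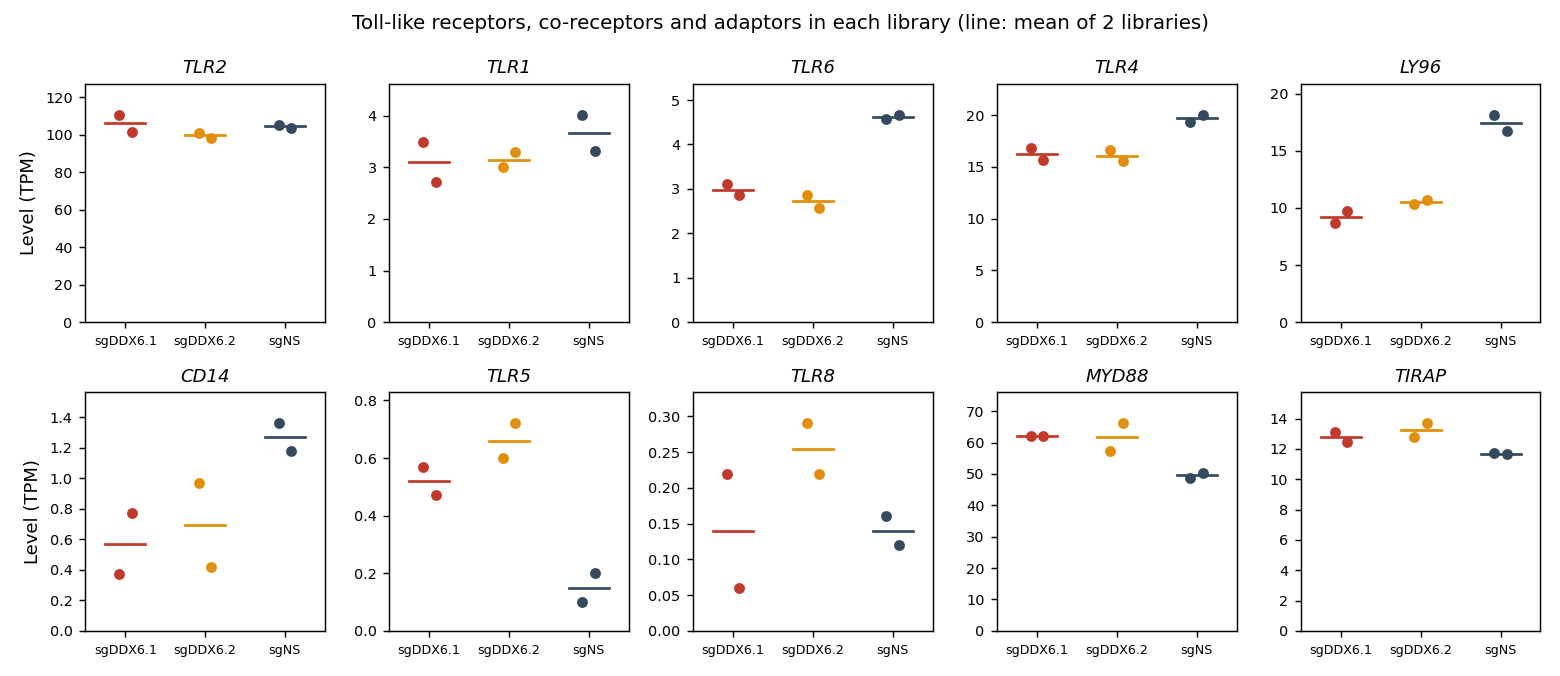
Level in TPM (vertical axis, linear from 0, a separate scale for each gene) of the 10 genes in each of the 6 libraries by group; points are libraries and lines are means of 2 libraries. LY96, TLR6, TLR4 and CD14 lie lower in all 4 sgDDX6 libraries than in sgNS, and MYD88, TIRAP and TLR5 lie higher.

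**Figure D2:**
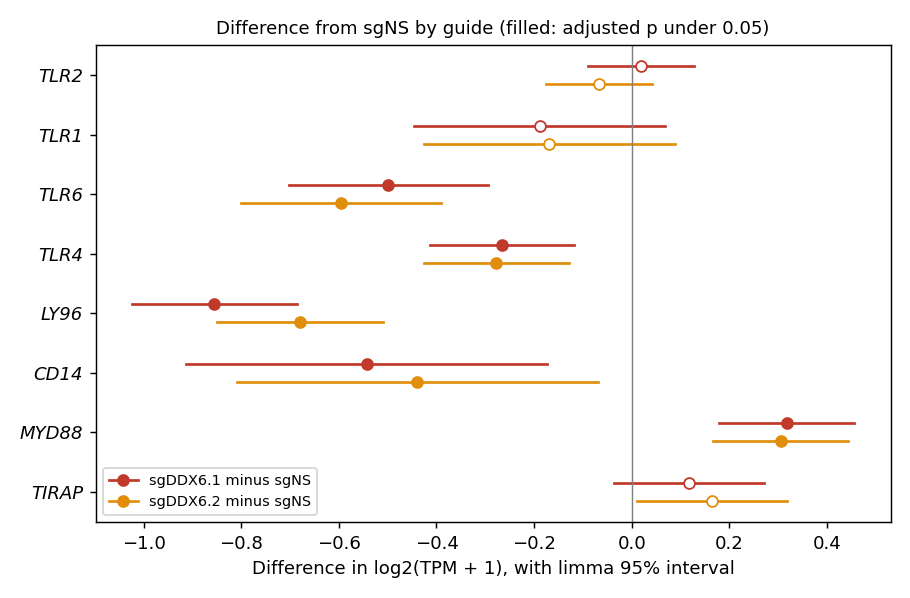
Difference in log2(TPM + 1) from sgNS for the 8 genes tested, by guide, with limma's 95% interval as the horizontal line; filled points passed an adjusted p of 0.05. LY96 shows the lowest values at -0.85 with sgDDX6.1 and -0.68 with sgDDX6.2, and MYD88 alone is filled to the right of 0.

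Promoter sequences are shown for 4 of the 5 genes that passed the test, of which CD14 had to differ once tested. They set the binding motifs of myeloid and inflammatory factors that these promoters hold beside the values. RefSeq promoters (GRCh38.p14) matched 7 of the 10 genes, and none was searched under the names of LY96, which passed, TLR1 and TIRAP. The 250 bases before each start were searched on both strands for GAGGAA, the core bound by PU.1, for TTGCNNAA, a C/EBP motif, for GGG and CC with 5 bases between them, an NF-kB motif, and for GAAA repeated after 2 bases, the interferon-stimulated response element (ISRE). Capitals mark matches, and where matches overlap they run together. TLR4 (chr9:117704153-117704402, plus strand), CD14 (chr5:140633176-140633425, minus strand), TLR6 (chr4:38856818-38857067, minus strand) and MYD88 (chr3:38138411-38138660, plus strand) read, 5′ to 3′:
TLR4: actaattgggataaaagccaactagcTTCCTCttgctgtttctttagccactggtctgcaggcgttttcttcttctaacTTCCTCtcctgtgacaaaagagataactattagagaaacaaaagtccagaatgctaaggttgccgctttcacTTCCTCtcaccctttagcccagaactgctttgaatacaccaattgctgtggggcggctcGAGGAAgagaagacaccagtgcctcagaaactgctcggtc
CD14: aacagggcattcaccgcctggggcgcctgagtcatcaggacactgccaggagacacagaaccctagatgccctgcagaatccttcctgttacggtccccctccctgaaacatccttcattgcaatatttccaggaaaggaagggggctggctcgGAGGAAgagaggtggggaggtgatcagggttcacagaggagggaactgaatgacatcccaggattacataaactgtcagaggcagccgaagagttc
TLR6: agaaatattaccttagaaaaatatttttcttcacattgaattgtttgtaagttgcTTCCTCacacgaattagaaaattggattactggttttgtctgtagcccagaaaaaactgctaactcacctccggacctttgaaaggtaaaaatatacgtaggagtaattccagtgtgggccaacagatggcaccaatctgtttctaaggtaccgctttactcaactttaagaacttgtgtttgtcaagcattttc
MYD88: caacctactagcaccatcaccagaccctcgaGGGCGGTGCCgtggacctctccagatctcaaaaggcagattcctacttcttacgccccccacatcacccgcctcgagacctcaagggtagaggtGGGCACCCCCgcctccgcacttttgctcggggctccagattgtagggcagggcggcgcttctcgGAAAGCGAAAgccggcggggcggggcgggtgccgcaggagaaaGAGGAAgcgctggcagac
The TLR4 window held the PU.1 core 4 times, 3 of them on the minus strand as TTCCTC, and the CD14, TLR6 and MYD88 windows held it once each. Those of TLR2, which did not pass, and of TLR5 and TLR8, which did not enter the test, did not hold it. Of 35114 promoters of this length 23.6% hold it. In GENCODE 29 TLR1, which did not pass, begins at the same base as TLR6, so the TLR6 window lies before both. Whether the core parts the genes that passed from the others was not tested. MYD88 alone of the 7 had the ISRE motif, which 3.0% of promoters hold, and also had NF-kB matches, as did TLR2 and TLR5 and 54.4% of all promoters. The C/EBP motif, in 9.1% of promoters, was in the TLR8 window alone. The matches are letters, not measured binding, and for TLR2, TLR4, TLR5, CD14 and MYD88 the GENCODE 29 gene begins upstream of the RefSeq start used here.

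LY96, the lipopolysaccharide-binding partner of TLR4, fell with both guides. LY96 (chr8:73991352-74029087, plus strand, GRCh38, GENCODE 29) had 8.70 and 9.70 TPM in sgDDX6.1, 10.4 and 10.7 TPM in sgDDX6.2, and 18.2 and 16.7 TPM in sgNS. All 4 sgDDX6 libraries lay well below both sgNS libraries, with means of 9.20 ± 0.707, 10.5 ± 0.219 and 17.4 ± 1.03 TPM for sgDDX6.1, sgDDX6.2 and sgNS (SD, n = 2 each). Over both guides its log2 fold change came to -0.77 (SE 0.07, limma adjusted p = 1.23e-06), lower than that of all but 4.0% of the genes tested. The 4 sgDDX6 libraries averaged 56.5% of the sgNS level. Both sgDDX6.2 libraries lay above both sgDDX6.1 libraries, as did 30.7% of all genes, by 0.18 on the log2 scale (SE 0.08), but this difference did not pass (limma adjusted p = 0.0985).

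TLR4, the signalling receptor, fell less. TLR4 (chr9:117704175-117724730, plus strand) had 16.8 and 15.7 TPM in sgDDX6.1, 16.6 and 15.6 TPM in sgDDX6.2, and 19.3 and 20.1 TPM in sgNS. The groups did not overlap, which held for 63.4% of all genes tested between the 4 sgDDX6 and both sgNS libraries (31.5% above, 31.9% below). A gene labelled AL160272.2 shares 4.2% of the exonic bases of TLR4. The log2 fold change was -0.27 (SE 0.06, limma adjusted p = 0.00151), -0.27 with sgDDX6.1 and -0.28 with sgDDX6.2. The sgDDX6 libraries averaged 82.0% of sgNS. The ratio of LY96 to TLR4 was 0.518 and 0.620 in sgDDX6.1, 0.624 and 0.685 in sgDDX6.2, and 0.940 and 0.833 in sgNS. The ratio was thus lower in all 4 sgDDX6 libraries, by 0.54 on the log2 scale (exact permutation test over 15 splits, two-sided p = 0.0667, the smallest the design can give). By the same exact test TLR6 over TLR1, TLR6 over TLR2 and TIRAP over MYD88 also had p = 0.0667. CD14 over TLR4 had 0.133 and TLR1 over TLR2 0.2, and of all these ratios only the last overlapped between sgDDX6 and sgNS. Ratios of other gene pairs were not computed, so nothing particular to a pair is read from these.

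CD14, the lipopolysaccharide carrier whose presence marks classical monocytes, was scarce. CD14 (chr5:140631728-140633701, minus strand) had 0.37 and 0.77 TPM in sgDDX6.1, 0.97 and 0.42 TPM in sgDDX6.2, and 1.36 and 1.18 TPM in sgNS. Each sgDDX6 library was lower than both sgNS libraries, and the spread within a guide was wide, with 0.570 ± 0.283, 0.695 ± 0.389 and 1.27 ± 0.127 TPM in sgDDX6.1, sgDDX6.2 and sgNS (SD, n = 2 each). The log2 fold change was -0.49 (SE 0.15, limma adjusted p = 0.0108). CD14 missed the threshold without the filter, where the adjusted p was 0.0553, under quantile normalization (0.0666), and without sgDDX6.1 replicate 1 (0.0543). With a single sgNS library left out it dropped below the filter and could not be tested, and its log2 fold change was -0.99 with a pseudocount of 0.1 and -0.16 with one of 5.

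Of TLR2 and its partners, TLR6 fell and TLR1 and TLR2 did not pass. TLR2 (chr4:153684070-153705702, plus strand), the shared partner, had 111 and 101 TPM in sgDDX6.1, 101 and 98.3 TPM in sgDDX6.2, and 105 and 104 TPM in sgNS. The groups overlapped, the log2 fold change was -0.02 (SE 0.04, adjusted p = 0.637), and its 95% interval ran from -0.12 to 0.07. TLR6 (chr4:38823715-38856817, minus strand) had 3.10 and 2.86 TPM in sgDDX6.1, 2.87 and 2.57 TPM in sgDDX6.2, and 4.57 and 4.67 TPM in sgNS, with no overlap. Its log2 fold change was -0.55 (SE 0.08, limma adjusted p = 9.40e-05), and the sgDDX6 libraries averaged 61.7% of sgNS. TLR1 (chr4:38790677-38856817, minus strand) had 3.50 and 2.71 TPM in sgDDX6.1, 3.0 and 3.29 TPM in sgDDX6.2, and 4.02 and 3.32 TPM in sgNS. The TLR1 groups overlapped, and its log2 fold change of -0.18 (SE 0.10, adjusted p = 0.140) had an interval of -0.40 to 0.04.

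TLR1 and TLR6 are near-identical in part, and the TLR6 gene lies within the span of TLR1 on the same strand, where they share 57 exonic bases in GENCODE 29. Of the 50-base windows in the TLR1 coding sequence of 2358 bases, 10.3% also occur in that of TLR6. The longest identical run has 218 bases, from position 1379 of the TLR1 coding sequence and position 1394 of that of TLR6. Its first 60 bases are shown, every letter common to both genes, because reads wholly within the run cannot be assigned by sequence:
TLR1 and TLR6: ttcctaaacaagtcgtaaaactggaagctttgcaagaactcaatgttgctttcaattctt
Reads wholly within such stretches were shared out by RSEM's model, so the separate values of these genes are uncertain. Summed, they had 6.60 and 5.57 TPM in sgDDX6.1, 5.87 and 5.86 TPM in sgDDX6.2, and 8.59 and 7.99 TPM in sgNS. The sum depends less on that division, its groups did not overlap, and its log2 fold change was -0.41 (SE 0.08, limma adjusted p = 0.000585). The ratio of TLR6 to TLR1 was 0.886 and 1.06 in sgDDX6.1, 0.957 and 0.781 in sgDDX6.2, and 1.14 and 1.41 in sgNS, lower in all 4 sgDDX6 libraries (exact permutation test, two-sided p = 0.0667, the smallest possible).

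The flagellin and RNA receptors were near the lower end of the scale. TLR5 (chr1:223109406-223143282, minus strand) had 0.57 and 0.47 TPM in sgDDX6.1, 0.60 and 0.72 TPM in sgDDX6.2, and 0.10 and 0.20 TPM in sgNS. Every sgDDX6 library was higher, as in 4.94% of the 4510 genes that were below the filter and above 0 in some library. Without the filter its log2 fold change was 0.47 (SE 0.06, limma adjusted p = 0.00158, where 23.3% of 15661 genes passed in this direction), but levels under 1 TPM may rest on few reads. TLR8 (chrX:12906620-12923169, plus strand) had 0.22 and 0.06 TPM in sgDDX6.1, 0.29 and 0.22 TPM in sgDDX6.2, and 0.16 and 0.12 TPM in sgNS, with overlap, and did not pass without the filter (adjusted p = 0.440).

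Of the adaptors MYD88 rose. MYD88 (chr3:38138478-38143022, plus strand) had 62.2 and 62.0 TPM in sgDDX6.1, 57.3 and 66.1 TPM in sgDDX6.2, and 48.8 and 50.4 TPM in sgNS. All sgDDX6 libraries were higher than sgNS, although the sgDDX6.2 libraries spread widely, and the mean was 124.7% of sgNS. The log2 fold change was 0.31 (SE 0.05, limma adjusted p = 0.000355). TIRAP (chr11:126283065-126298845, plus strand) had 13.1 and 12.4 TPM in sgDDX6.1, 12.8 and 13.7 TPM in sgDDX6.2, and 11.7 and 11.7 TPM in sgNS. The TIRAP groups did not overlap either, yet the log2 fold change of 0.14 (SE 0.06) did not pass (adjusted p = 0.0585), with an interval of 0.01 to 0.27. Antisense genes cover 12.5% and 10.0% of the exonic bases of TIRAP, and whether the counting used strand is not given in the sources used here.

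In order of level, the sgDDX6 libraries had TLR2 (mean 102.9 TPM), MYD88 (61.9), TLR4 (16.2), TIRAP (13.0) and LY96 (9.85), then TLR1 (3.13), TLR6 (2.85), CD14 (0.633), TLR5 (0.59) and TLR8 (0.198). The ranges of TLR1 and TLR6 overlapped there, and so did those of CD14 and TLR5. In sgNS the order was TLR2 (mean 104.5 TPM), MYD88 (49.6), TLR4 (19.7), LY96 (17.4), TIRAP (11.7), TLR6 (4.62), TLR1 (3.67), CD14 (1.27), TLR5 (0.15) and TLR8 (0.14), with the last pair overlapping. LY96 thus stood below TIRAP in all 4 sgDDX6 libraries and above it in both sgNS libraries.

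Between the DDX6 guides no receptor or adaptor gene passed. For sgDDX6.2 against sgDDX6.1, 0 of the 8 genes passed (limma; 1, LY96, had an unadjusted p under 0.05), where 35.6% of all genes did (17.0% higher, 18.6% lower). The differences ran from -0.10 for TLR6 to 0.18 for LY96, and the widest interval was that of CD14, from -0.27 to 0.47. For MYD88 the interval of the difference was -0.15 to 0.13 and for TLR4 -0.16 to 0.14.

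By centred log2(TPM + 1) over the 6 libraries, the genes most like TLR4 were VAPB, SSBP2 and GINM1, with root mean square differences of 0.0174, 0.0186 and 0.0226 among 9293 candidates. For TLR2 they were C5orf51 (0.0086), ZNF318 (0.0097) and GPBP1 (0.0103), and for CD14, less closely, NIT1 (0.123), MED7 (0.124) and NMRK1 (0.126). The points share their libraries, which fall into 3 groups.

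Of other genes of the family, CD180 and LY86 rose. CD180 and LY86 form a surface pair homologous to TLR4 and LY96 that lacks the signalling domain. CD180 had 16.7 and 15.3 TPM in sgDDX6.1, 28.3 and 28.9 TPM in sgDDX6.2, and 8.26 and 8.93 TPM in sgNS. On the log2(TPM + 1) scale, on which all changes of the pathway genes are given, it rose by 1.22 (SE 0.06, limma adjusted p = 1.11e-08). LY86 had 426 and 456 TPM in sgDDX6.1, 498 and 510 TPM in sgDDX6.2, and 323 and 334 TPM in sgNS. It rose by 0.52 (SE 0.04, adjusted p = 1.71e-07). Of the 6 genes in this list 3 were tested, 2 rose and none fell; TLR9, the DNA receptor, had 0.10 (adjusted p = 0.407), and TLR3, TLR7 and TLR10 stayed at or below 0.21 TPM. Without the filter 1 of the list passed lower. TLR7, an RNA receptor, had 0 and 0.03 TPM in sgDDX6.1, 0.05 and 0.04 TPM in sgDDX6.2, and 0.21 and 0.11 TPM in sgNS. With 3 genes tested, the median log2 fold change of the list, 0.52, is the value of LY86 itself. Over all genes tested the median was 0.0008. The counts of this and the following lists stand against the 66.7% of all genes that passed, 33.8% higher and 32.9% lower, and nothing particular to a list is read from them.

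**Figure D3:**
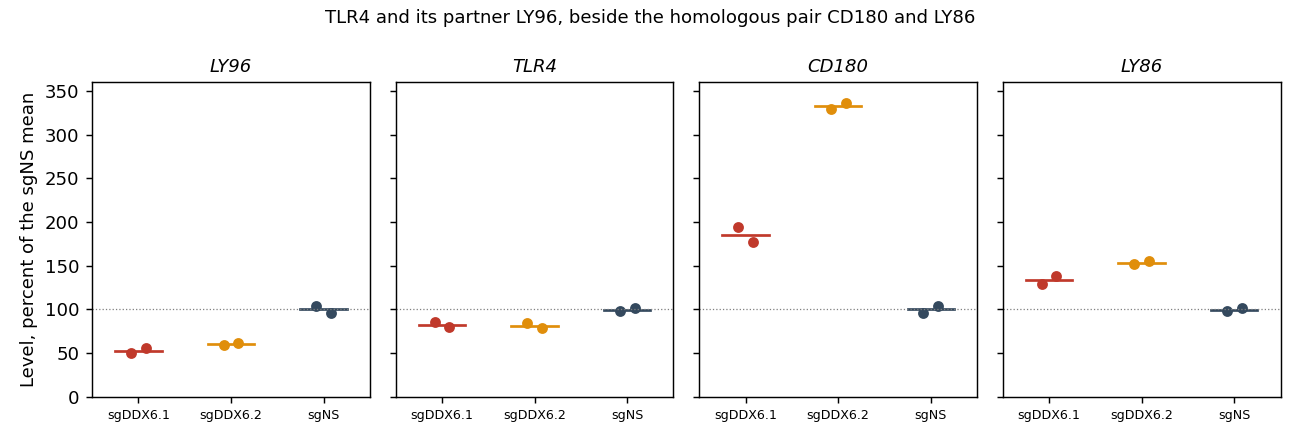
Level of LY96, TLR4, CD180 and LY86 in each library as a percentage of the gene's sgNS mean (vertical axis, linear from 0, dotted line at 100). LY96 lies at 49.9 to 61.1 and TLR4 at 79.0 to 85.3 in the sgDDX6 libraries, while CD180 lies at 177 to 336 and LY86 at 130 to 155.

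Of 7 genes that fold, carry or assist the receptors, 4 were tested, and all 4 rose (median 0.68), where 33.8% of all genes rose. HSP90B1, the ER chaperone that Toll-like receptors need to fold, had means of 997 ± 27.1, 965 ± 3.63 and 616 ± 4.77 TPM in sgDDX6.1, sgDDX6.2 and sgNS (SD, n = 2 each), a log2 fold change of 0.67 (SE 0.03, limma adjusted p = 3.43e-09). UNC93B1, which carries endosomal receptors out of the ER, rose by 0.69, CNPY4 by 0.46 and CD36, a scavenger receptor that can present lipids to TLR2 with TLR6, by 1.87. TRIL and LBP stayed at or below 0.37 TPM.

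Among other adaptors PIK3AP1, which links the receptors to PI3K, rose by 0.53, with 154 ± 7.32, 148 ± 0.311 and 104 ± 1.03 TPM in sgDDX6.1, sgDDX6.2 and sgNS (SD, n = 2 each; limma adjusted p = 2.49e-07). SARM1 fell by 0.39 and passed the filter only through sgNS libraries (adjusted p = 0.0088, and 0.0563 under quantile normalization). TICAM1 and TICAM2, the adaptors of the interferon branch, had 0.07 and -0.09 and did not pass.

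Of 19 kinases, ubiquitin enzymes and their partner subunits downstream, all tested, 7 rose and 3 fell (median 0.06), where 66.7% of all genes passed. The ligase genes PELI2 and PELI1, whose products act on IRAK proteins, fell by 0.89 and 0.55, while TAB1, a partner of the TAK1 kinase, and the kinase gene IKBKE rose by 0.53 and 0.45 (limma adjusted p of 1.15e-07, 4.19e-05, 1.70e-05 and 7.96e-05 in that order). Without sgDDX6.1 replicate 1 the number that fell was 5. Of 4 interferon regulatory factors tested, IRF5, a factor activated downstream of MYD88, and IRF8 rose by 0.97 and 0.86, IRF1 fell by 0.76, and IRF3 had 0.08 and did not pass. IRF5 had means of 47.5 ± 1.27, 49.3 ± 3.28 and 24.1 ± 0.226 TPM in sgDDX6.1, sgDDX6.2 and sgNS (SD, n = 2 each).

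Negative regulators numbered 10 tested genes, of which 5 rose and 3 fell (median 0.12), where 66.7% of all genes passed; 2 rose with sgDDX6.1 and 5 with sgDDX6.2. The phosphatase gene DUSP1 rose by 0.56, while TNFAIP3 and CYLD, both deubiquitinases that restrain NF-kB, fell by 0.38 and 0.43, and the cytokine signalling inhibitor SOCS1 fell by 0.59 (limma adjusted p of 4.93e-07, 2.78e-05, 0.000128 and 4.35e-05 in that order). With the 4 sgDDX6 libraries as 1 group, 2 of the negative regulators rose. Of 11 tested genes that receptor ligands induce in monocytes, 7 fell and 2 rose (median -0.33), where 32.9% of all genes fell. CXCL8, a neutrophil chemokine, had 78.5 ± 6.32, 79.0 ± 0.205 and 152 ± 4.40 TPM in sgDDX6.1, sgDDX6.2 and sgNS (SD, n = 2 each) and fell by 0.94, and CXCL2 and the adhesion gene ICAM1 fell by 1.44 and 0.51, whereas the chemokine CCL3 rose by 0.84. One that fell was CCL2, a monocyte chemokine named outside the rule after its values were seen. It passed the filter only through sgNS libraries and so had to differ. Its fall passed with sgDDX6.1 (-0.80) and not with sgDDX6.2 (-0.25, limma adjusted p = 0.0808). Of the ligand-induced genes 7 fell with sgDDX6.1 and 6 with sgDDX6.2.

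Among 7 transcription factors known to act on monocyte receptor genes, 2 rose and 2 fell, with a median of 0.09. SPI1, which encodes PU.1, had 341 ± 0.0424, 353 ± 5.66 and 243 ± 2.15 TPM in sgDDX6.1, sgDDX6.2 and sgNS (SD, n = 2 each) and rose by 0.52 (limma adjusted p = 5.33e-08), and CEBPA rose by 0.41. CEBPB, with 23.8 ± 1.56, 24.6 ± 1.13 and 109 ± 4.0 TPM in the same order, fell by 2.13 (adjusted p = 2.55e-11), and SP1 fell by 0.49.

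**Figure D4:**
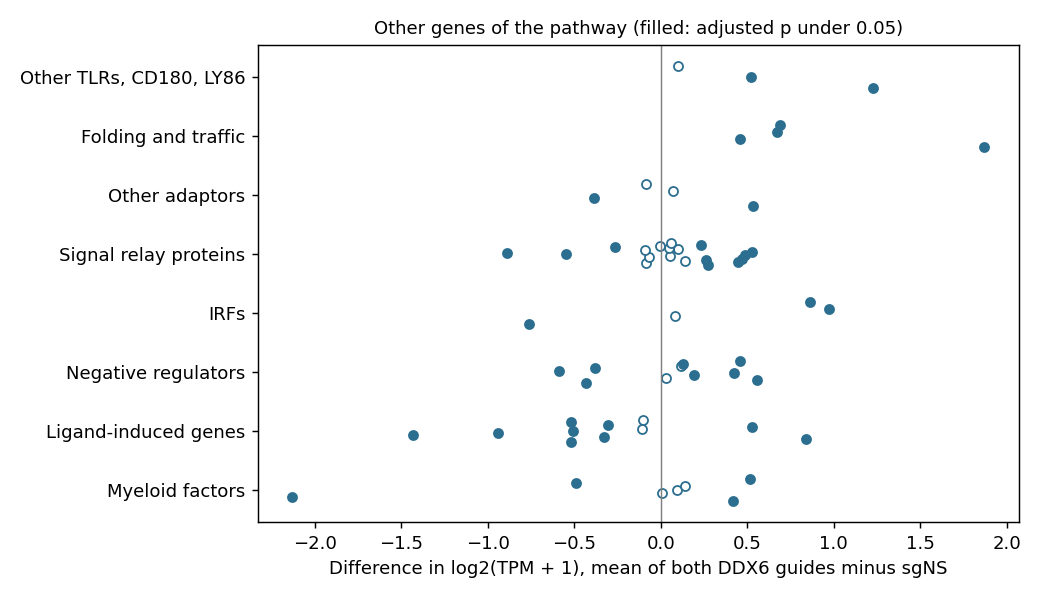
Log2 fold change (horizontal axis, mean of both DDX6 guides minus sgNS on the log2(TPM + 1) scale) of each tested gene in the 8 pathway lists, 1 row of points per list; filled points passed an adjusted p of 0.05. Filled points of folding and traffic all lie to the right of 0, at 0.46 to 1.87, and 7 of the 9 filled ligand-induced genes lie to the left.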

How the data were processed

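The deposited table holds TPM for each gene and library, with 2 decimals. Per the submitters' processing notes, the authors used RSEM 1.2.31 and GRCh38; neither aligner nor annotation is named there. Reads that match more than 1 gene are shared out by RSEM's model. TPM are shares of a library, so a rise of abundant genes lowers the rest, and without depth no counting interval was computed. All 6 columns matched a label.

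From these values log2(TPM + 1) was computed for genes with at least 1 TPM in 2 libraries, 11151 of 18806. limma 3.58.1 (R 4.3.3) then fitted 3 group means to the 6 libraries, leaving 3 residual degrees of freedom, with a variance trend, two-sided tests and Benjamini-Hochberg adjustment over all genes in each of 4 contrasts and a threshold of 0.05. Fold changes on this scale understate those of low genes. Ratios of levels were compared with an exact permutation test.

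The receptor and adaptor genes and the lists were chosen with earlier results of these data known. From each pathway list up to 4 tested genes with the lowest adjusted p over both guides are named; the markers named were singled out after their values were seen. CNPY3, IRF7 and TNF of the lists were not analysed here, and 1 marker is not reported here. Alternatives were pseudocounts of 0.1 and 5, no filter or a filter of 5 TPM, quantile normalization, median centring, no variance trend, robust variance, a replicate block, each library left out, only the groups compared, the 4 sgDDX6 libraries as 1 group, and TLR1 and TLR6 summed.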

Additional observations from a re-analysis of the deposited data

Results flagged for a closer look

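Of the 8 receptor and adaptor genes tested, 0 differed between the DDX6 guides; of the 31 pathway genes named, 8 did, by the test of sgDDX6.2 minus sgDDX6.1 itself (limma), where 35.6% of all genes did, so these counts are no result about the genes. On the log2 scale CD180 was higher with sgDDX6.2 by 0.81 (adjusted p = 1.49e-05), CD36 by 0.62 (0.000297), CCL3 by 0.59 (0.000230), SOCS1 by 0.29 (0.0278), ICAM1 by 0.27 (0.00307), PELI2 by 0.22 (0.0258) and LY86 by 0.19 (0.00419). IRF8 was lower with sgDDX6.2, at -0.46 (1.09e-05), with 172 ± 0.976 TPM in sgDDX6.2 and 238 ± 1.41 TPM in sgDDX6.1 (SD, n = 2 each). CD180, CD36, LY86, CCL3 and IRF8 rose with each guide against sgNS, and PELI2, SOCS1 and ICAM1 fell with each. The differences of PELI2 and SOCS1 lost their call in 4 and 5 of the alternatives, with adjusted p of 0.0536 to 0.130.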

How the results depend on the processing

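The falls of LY96, TLR4 and TLR6 and the rise of MYD88 over both guides passed in all 16 alternatives in which they were tested, from -0.82 to -0.60, -0.30 to -0.22, -0.68 to -0.29 and 0.26 to 0.36. For TLR6 these include its sum with TLR1 (-0.41), which is not TLR6 alone, and leave out the filter of 5 TPM. The number of the receptor and adaptor genes that rose over both guides was 2, not 1, without the filter (with TLR5), under quantile normalization, under median centring and without a variance trend (with TIRAP), and 1 to 2 with 1 library left out. With sgDDX6.1 it was 2 without the filter and under quantile normalization. With sgDDX6.2 it was 2 in those settings, under median centring, without a variance trend and with only the groups compared, and 1 to 2 with 1 library left out. The number that fell was 2, not 4, in each comparison with sgNS at a filter of 5 TPM, which removes TLR1, TLR6 and CD14. Between guides, the number lower was 0 to 1 with 1 library left out: TLR2 passed without sgDDX6.1 replicate 2, at -0.15 (adjusted p = 0.0428). CD14 with sgDDX6.2 lost its call in 6 alternatives, including without sgDDX6.2 replicate 2 (adjusted p = 0.334).

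Signs turned round in differences that had not passed. Quantile normalization turned TLR2 with sgDDX6.1 to -0.032 and, between the guides, TLR1 to -0.11, CD14 to -0.042 and MYD88 to 0.023. Median centring turned the guide differences of TLR4 to 0.0085 and MYD88 to 0.0074, and for TLR1 summed with TLR6 it was -0.042. With 1 library left out, TLR2 ran from -0.055 to 0.0071 over both guides and from -0.043 to 0.082 with sgDDX6.1. The guide differences then ran from -0.12 to 0.16 for TLR1, -0.059 to 0.036 for TLR4, -0.13 to 0.34 for CD14 and -0.11 to 0.089 for MYD88. Over both guides TLR9 ran from -0.022 to 0.21, TICAM2 from -0.25 to 0.069 and IRF3 from -0.020 to 0.19; TICAM2 passed without sgDDX6.1 replicate 1 (adjusted p = 0.0476) and IRF3 without sgNS replicate 2 (0.0244). The cause was not tested. Of 256 list counts under alternatives, 8 moved by over 1.5 times or changed to or from 0.

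Between libraries of the same replicate number, correlations of deviations were 0.04 (sgDDX6.1 with sgDDX6.2), 0.262 (sgDDX6.1 with sgNS) and 0.098 (sgDDX6.2 with sgNS). All are positive, and the labels do not say whether replicate numbers mark shared cultures, so a pairing is not settled. The replicate block left the counts over both guides at 1 higher and 4 lower. Depth is unknown, so levels under 1 TPM are least certain.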
